A study of Danio rerio with 3 samples.

Results

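The genes described here are hoxa3a, hoxb3a, hoxd3a, hoxa4a, hoxb4a and hoxd4a, the zebrafish Hox paralog group 3 and 4 genes of the hoxa, hoxb and hoxd clusters. They were chosen by symbol, and their UMI counts (unique molecular identifiers, counted transcript molecules) were followed in single cells from tissue dissected around the otic vesicle. Of the 6 genes, 5 had a row among the 25109 gene rows of the deposited matrices, which hold 48 hox genes of all groups. There was no row for hoxa3a, and its level was not measured here.

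Cells came from 3 droplet libraries, 1 per shox2 genotype, of embryos that the labels give as about 22 hours post fertilization. The study's methods describe pools of several stages, this one the latest, so a library can mix stages. The wild-type library (shox2+/+) came from embryos selected for 2 reporter transgenes, neurog1:dsRed and neurod1:EGFP, which label otic neuronal progenitors and delaminating neuroblasts. The mutant library (shox2Δ/Δ) came from GFP-negative embryos of an incross of shox2Gal4/Δ fish carrying UAS:GFP, without the neurog1 and neurod1 reporters. The allele Δ is a deletion of parts of exons 1 and 2 of shox2, and because the libraries read the 3′ end of transcripts, shox2 UMIs do not show whether a transcript was intact. The labels give the third library as shox2Δ/+ (heterozygote), and its cross was not given in the sources used here. Embryos of 1 genotype were pooled, so each condition is 1 sample, and no test between conditions was possible.

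Hox genes encode homeodomain transcription factors whose order along each chromosome cluster follows the order of their front expression borders along the body axis. In the vertebrate hindbrain, which is divided into segments called rhombomeres, group 3 genes begin at about rhombomere 5 and group 4 genes at about the border of rhombomeres 6 and 7. egr2b, a zinc finger factor, marks rhombomeres 3 and 5, and mafba, the Kreisler homologue, marks rhombomeres 5 and 6. The otic vesicle lies beside this part of the hindbrain. Group 3 genes are also known from the third pharyngeal arch, where they act in neural crest cells and in the pharyngeal endoderm. Retinoic acid, made by aldh1a2 in the mesoderm and degraded by the cyp26 enzymes, sets the front borders of these genes in the hindbrain.

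Cells with at least 500 and under 6500 detected genes and under 5% mitochondrial UMIs were kept, which left 8548 of 10466 barcodes in the wild-type library, 6672 of 8877 in the mutant library and 8233 of 10419 in the heterozygote library. Kept cells had medians of 19450, 17494 and 16570 UMIs in the same order. Libraries shared cell barcodes. Between the mutant and wild-type libraries 2083 barcodes occurred in both, 23.5% of the mutant library's barcodes and 19.9% of the wild-type library's. Of the kept cells, 20.5% of the wild-type, 22.3% of the mutant and 7.01% of the heterozygote library had a barcode that also occurred in another library, so results were also computed without those cells. The wild-type library stood apart from the other libraries. In neural progenitor-like cells, 20.1% of 6185 genes differed by over 1.5-fold between the mutant and wild-type libraries and 15.5% of 6128 between the heterozygote and wild-type libraries, against 1.33% of 6034 between the mutant and heterozygote libraries. Genotype, reporter transgenes, cross, exact stage and library cannot be told apart in any comparison with the wild-type library. The dissection was meant to avoid the hindbrain, yet 11558 of the 23453 kept cells fell in clusters carrying neural markers.

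Levels are given as CPM, the UMIs of a gene in every 1000000 UMIs of the cells named, with exact Poisson intervals at the 95% level, which cover counting error only. Over all kept cells, hoxb3a was counted at 31287, 33419 and 30331 UMIs in the wild-type, mutant and heterozygote libraries. hoxa4a had 10177, 10146 and 9173 UMIs, and hoxd4a had 7122, 4987 and 4857. The kept cells held 176280326, 131099920 and 157573577 UMIs of all genes, so raw counts do not compare levels between libraries. hoxd3a, with 798, 517 and 600 UMIs, and hoxb4a, with 122, 85 and 85, were sparse, and most of what follows rests on hoxb3a, hoxa4a and hoxd4a. In the RefSeq annotation of assembly GRCz12tu, hoxa4a lies within hoxa3a on chromosome 19, hoxb4a within hoxb3a on chromosome 3 and hoxd4a within hoxd3a on chromosome 9. How reads of such overlapping genes were divided was not given in the sources used here. Whether the row named hoxa4a also holds transcripts of hoxa3a, which has no row, cannot be told apart.

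hoxb3a was found throughout the neural cells, in cluster 12 and in the pharyngeal endoderm-like cells. Cluster 12, an unnamed cluster outside the neural cells led by rhag and gdf3, was above the pharyngeal endoderm-like cells over all libraries. hoxb3a was close to its lowest level in the forebrain and midbrain-like cells and the otic-like cells. In neural progenitor-like cells its level was 207 CPM (204 to 210) in the wild-type library, 329 CPM (323 to 335) in the mutant library and 248 CPM (243 to 253) in the heterozygote library. In neuron-like cells hoxb3a stood at 534, 647 and 628 CPM in the same order, above the progenitor level in every library. In pharyngeal endoderm-like cells, which line the pouches between the arches, hoxb3a reached 263, 455 and 368 CPM. The forebrain and midbrain-like class, whose cells are expected to lack these genes, had 9.65, 14.3 and 13.0 CPM of hoxb3a, taken here as the background level. Its makeup differed between libraries. It joins cluster 11, led by en2b and en2a, with 247 wild-type, 238 mutant and 338 heterozygote cells, and cluster 18, led by rx1 and fezf2, with 5, 122 and 507. The background is thus not that of the same cells in each library. The otic-like class, named from oc90, hmx2 and other otic genes, had 28.0 CPM (24.2 to 32.2), 31.3 CPM (26.6 to 36.5) and 25.2 CPM (20.8 to 30.2) of hoxb3a. These intervals overlap, so no difference of hoxb3a between libraries was detectable in the otic-like cells at this depth.

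Shares of cells were compared after each cell was thinned to 3000 UMIs. hoxb3a was then detected in 37.2% (35.6 to 38.8, exact binomial 95% interval) of 3700 neural progenitor-like cells of the wild-type library, in 49.5% (47.2 to 51.8) of 1849 of the mutant library and in 39.8% (37.9 to 41.7) of 2569 of the heterozygote library. In the forebrain and midbrain-like class the shares with hoxb3a were 2.41%, 3.75% and 2.58%. The otic-like shares were 4.81%, 6.63% and 4.03%, above those of the forebrain and midbrain-like class in each library but with overlapping intervals. The otic-like levels in CPM were above those of that class with intervals that do not overlap, so a low otic-like level of hoxb3a above background was not settled by the shares at this depth. Before thinning, the median depths were 18351, 17036 and 14987 UMIs in the progenitor class and 24077.5, 18082.5 and 16574 UMIs in the forebrain and midbrain-like class, and the unthinned progenitor shares were 65.1%, 71.7% and 63.0%.

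hoxa4a showed a different spread over the classes. Neural progenitor-like cells carried 64.2, 82.3 and 61.9 CPM of hoxa4a, wild-type first, then mutant, then heterozygote. Arch mesenchyme-like cells carried 86.7, 151 and 113 CPM of it, and pharyngeal endoderm-like cells 59.3, 75.1 and 48.6 CPM. In the otic-like class hoxa4a was at 10.1, 10.0 and 10.8 CPM, and in the forebrain and midbrain-like class at 4.58, 9.81 and 4.44 CPM. The highest level of hoxa4a over all libraries, 217 CPM, was in cluster 20, an unnamed neural cluster led by lens crystallin genes and egr2b that held 7 wild-type, 232 mutant and 277 heterozygote cells. The next, at 196 CPM, was cluster 10, which is led by cyp26b1, lens crystallin genes and egr2b and held 203, 278 and 394 cells. Both are clusters with neural progenitor markers, and the source of their crystallin transcripts was not tested.

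hoxd4a was almost missing from those same clusters. It stood at 1.30 CPM (0.477 to 2.83), 3.52 CPM (2.18 to 5.38) and 2.95 CPM (1.82 to 4.50) in cluster 10 of the wild-type, mutant and heterozygote libraries, and at 1.0 CPM over the whole of cluster 20. In the forebrain and midbrain-like class it was at 3.69 to 4.90 CPM. The mutant and heterozygote intervals of cluster 10 reached into that range, so which was lower was not settled for them. In neural progenitor-like cells hoxd4a was at 54.1, 76.3 and 60.0 CPM. Its highest level over all libraries, 127 CPM, was outside the neural cells, in cluster 25, an unnamed cluster led by cfd, rbp4 and cyp26a1, where hoxa4a was low. There hoxd4a was at 115, 133 and 127 CPM and hoxa4a at 13.4, 14.2 and 6.52 CPM. Cluster 9, led by krt15, hoxb8a and foxi1, carried hoxd4a at 84.4, 75.5 and 63.2 CPM. In the pharyngeal endoderm-like class, where hoxb3a was high, hoxd4a was at 5.05, 3.59 and 3.83 CPM, a level like that of the forebrain and midbrain-like class.

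Among clusters, the sparse genes had their highest levels in clusters with neuron markers. hoxd3a was highest over all libraries in cluster 26, at 41.5 CPM, then in cluster 28 at 31.4 CPM and in cluster 23 at 21.4 CPM, while neural progenitor-like cells had 3.50, 5.90 and 4.92 CPM of hoxd3a, with the libraries in the same order. Cluster 26 is led by foxn4, vsx1 and sox14, genes known from spinal and hindbrain interneurons, cluster 28 by crhbp, tac1 and pou4f2, and cluster 23, of the neuron-like class, by scrt1a, otpa and uncx4.1. Among clusters, hoxb4a was also highest in cluster 26, at 4.2 CPM, and its progenitor levels were 0.93, 1.14 and 1.24 CPM. Cluster 26 held 289 cells at a median of 5401 UMIs, so its hoxb4a level rests on few UMIs. hoxb4a had 0 UMIs in the arch mesenchyme-like and otic-like classes, which allows levels of up to 0.0829 and 0.179 CPM at 3 UMIs of the class total. Its totals are too small for a comparison between libraries.

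**Figure D1:**
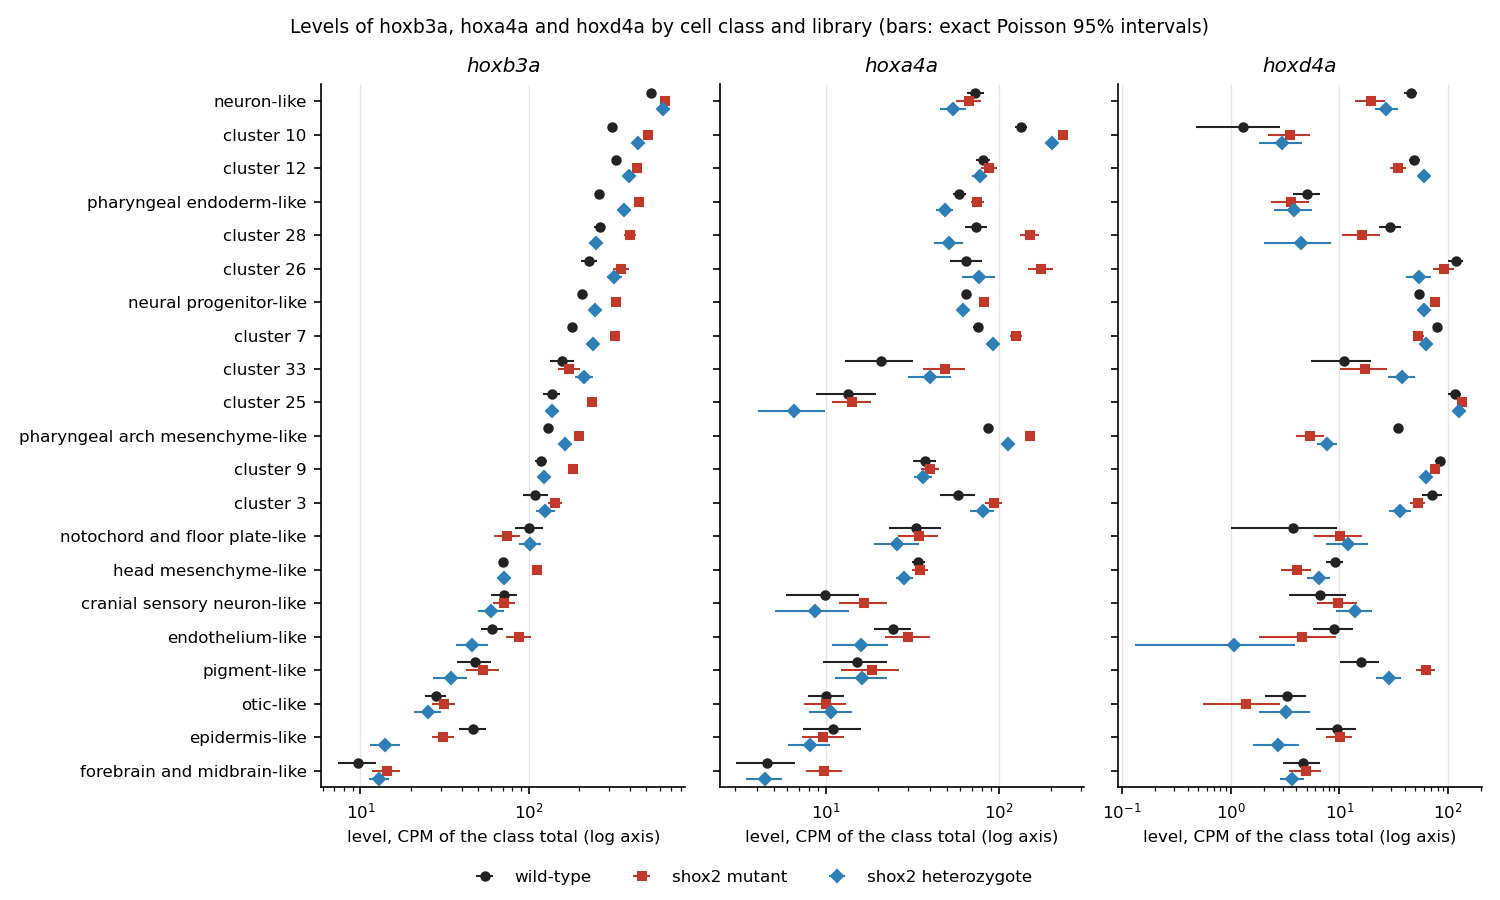
Level (CPM, log axis) of hoxb3a, hoxa4a and hoxd4a in the cell classes and unnamed clusters shown, with 1 point per library and exact Poisson 95% intervals as bars. hoxb3a is high in neuron-like, cluster 10, cluster 12 and endoderm-like cells and low in otic-like and forebrain and midbrain-like cells. hoxd4a is low in cluster 10, where hoxa4a is high.

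Neural cells were next sorted by transcripts of genes that mark hindbrain segments, none of them a group 3 or 4 gene. Cells with a UMI of both mafba and egr2b, the pair known from rhombomere 5, numbered 439 (wild-type), 495 (mutant) and 562 (heterozygote). hoxb3a stood there at 402 CPM (389 to 415), 588 CPM (573 to 603) and 530 CPM (516 to 544). Among cells with egr2b and no mafba UMI, as in rhombomere 3, hoxb3a was at 103, 111 and 103 CPM. Cells with mafba and no egr2b UMI, as in rhombomere 6, had 348, 584 and 470 CPM of hoxb3a. So hoxb3a was between 3 and 6 times as high in cells with mafba as in cells with egr2b alone, in each library, with intervals far apart.

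hoxa4a followed the same order with a steeper step toward cells holding both genes. Its level was 158 CPM (150 to 166), 270 CPM (260 to 280) and 253 CPM (244 to 263) with mafba and egr2b, 86.7, 154 and 132 CPM with mafba alone and 31.7, 30.0 and 29.1 CPM with egr2b alone. After thinning to 3000 UMIs, hoxa4a was detected in 37.8%, 52.7% and 52.4% of the cells with mafba and egr2b, against 8.64%, 6.56% and 7.06% of cells with egr2b alone. Group 4 genes are known for a front border behind rhombomere 5, while the study used hoxb3a and hoxa4a to define this rhombomere in its wild-type embryos. Whether hoxa3a transcripts add to the hoxa4a row was not tested.

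hoxd4a ran the other way. It was at 10.8 CPM (8.82 to 13.0), 5.95 CPM (4.56 to 7.63) and 5.40 CPM (4.07 to 7.03) in cells with mafba and egr2b, and at 80.7 CPM (78.4 to 83.0), 99.3 CPM (95.7 to 103) and 79.1 CPM (76.1 to 82.1) in cells with neither. With mafba alone hoxd4a was at 27.6, 20.2 and 12.4 CPM. hoxd4a was detected in 1.37%, 1.41% and 0.894% of the thinned cells with mafba and egr2b. In forebrain and midbrain-like cells the shares were 1.61%, 0.865% and 1.35%. Both sets of shares rest on few cells, so which was higher within a library was not settled.

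A further gate used a list named Hox groups 5 to 8, which also held hoxa9a and hoxa9b from outside those groups. Over all kept cells, hoxa9a had 5, 37 and 0 UMIs and hoxa9b 23, 2 and 20 in the wild-type, mutant and heterozygote libraries. Cells with transcripts of this list and neither mafba nor egr2b, which mark the caudal hindbrain and spinal cord, numbered 148, 109 and 67. In them every measured gene was above its level in neural cells with neither mafba nor egr2b. hoxd4a was at 191 CPM (176 to 207), 255 CPM (236 to 276) and 248 CPM (223 to 276), and hoxa4a at 381, 399 and 333 CPM. hoxb3a stood at 331, 529 and 400 CPM, hoxd3a at 17.3, 22.6 and 21.5 CPM, and hoxb4a at 4.8, 9.3 and 7.2 CPM. A gate by detected UMIs takes in cells of another segment where the second gene was missed. When gates were set on thinned cells, hoxa4a with mafba and egr2b in the wild-type library was 245 CPM, over 1.5 times its level above, and hoxd4a there was 1.25 CPM in place of 10.8 CPM.

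**Figure D2:**
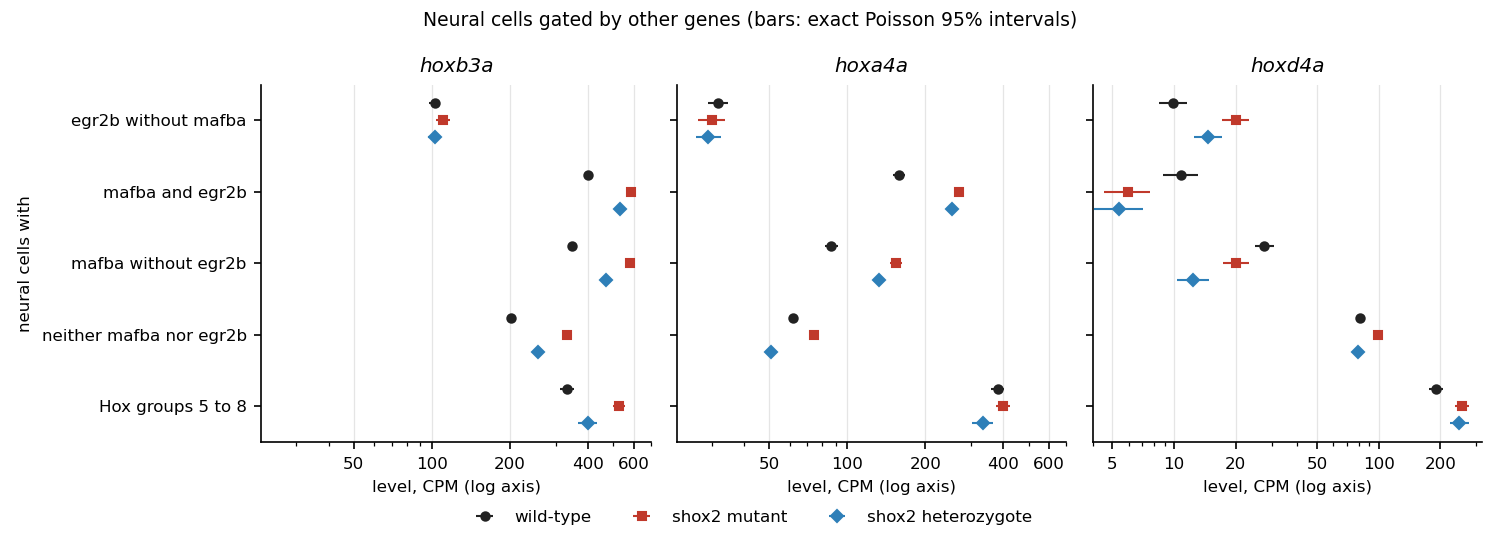
Level (CPM, log axis) of hoxb3a, hoxa4a and hoxd4a in neural cells sorted by UMIs of egr2b, mafba and Hox groups 5 to 8, with 1 point per library and exact Poisson 95% intervals. hoxb3a and hoxa4a step up between cells with egr2b alone and cells with mafba, while hoxd4a is lowest in cells with mafba and egr2b and highest in cells with Hox groups 5 to 8.

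Across the dorsoventral axis the differences were smaller. Progenitor-cluster cells were called dorsal, intermediate or ventral from genes such as atoh1a and pax3a, dbx1a and gsx1, and nkx6.1 and nkx2.2a. These cells include the unnamed clusters 7, 10 and 20, which the neural progenitor-like class leaves out. The ventral list also held olig4, a leading gene of cluster 19, which is led by atoh1a, a gene of the dorsal list. Cells of that cluster can therefore be called ventral, and their part in the ventral levels was not tested. In the wild-type library hoxb3a was at 209 CPM in 1800 dorsal, 189 CPM in 1183 intermediate and 230 CPM in 917 ventral cells. In the mutant library hoxb3a was at 378, 332 and 400 CPM and in the heterozygote library at 286, 275 and 324 CPM in the same positions. Intermediate cells were lowest and ventral cells highest in all 3 libraries, but the order changed within gates. In cells with mafba hoxb3a was at 394, 611 and 524 CPM in dorsal and 368, 602 and 529 CPM in ventral cells, and in cells without mafba and egr2b intermediate cells were above dorsal cells in the wild-type and heterozygote libraries. hoxa4a was also lowest in intermediate cells, at 50.8, 87.6 and 81.4 CPM in the wild-type, mutant and heterozygote libraries, against 78.1, 118 and 95.1 CPM in dorsal cells. hoxd4a was at 60.7, 65.4 and 59.2 CPM in dorsal, 44.3, 41.3 and 41.0 CPM in intermediate and 55.9, 68.2 and 43.7 CPM in ventral cells. In cells without mafba and egr2b hoxd4a was at 95.9, 123 and 105 CPM in dorsal, 63.9, 69.4 and 69.4 CPM in intermediate and 81.4, 105 and 70.1 CPM in ventral cells. With mafba, where hoxd4a was low, its dorsal and intermediate intervals overlapped in the wild-type and mutant libraries.

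Among the neuron clusters the genes separated more by neuron type. hoxd3a was nearly absent from motor neurons, called from isl1, phox2a and related genes, at 3.09, 2.03 and 1.97 CPM in the wild-type, mutant and heterozygote libraries. In inhibitory neurons, called from gad1b, gad2 and related genes, hoxd3a was at 32.3 CPM (26.0 to 39.6), 32.4 CPM (23.5 to 43.5) and 26.8 CPM (19.9 to 35.5). In excitatory neurons, called from slc17a6a, slc17a6b and related genes, hoxd3a was at 44.2 CPM (35.8 to 53.9), 16.1 CPM (9.40 to 25.8) and 29.6 CPM (22.0 to 39.0). The motor intervals lay below those of both other types in all 3 libraries. The inhibitory list also held the transcription factor genes pax2a, lhx1a and lhx5, and the excitatory list lmx1bb, barhl1a, barhl2, lhx2b and vsx1. A cell could be called from such genes alone, so these names do not show that a transmitter gene was detected.

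hoxb3a did not share that pattern. It was at 448, 663 and 529 CPM in motor, 400, 530 and 418 CPM in inhibitory and 395, 340 and 315 CPM in excitatory neurons of the wild-type, mutant and heterozygote libraries. hoxd4a differed between libraries in motor neurons. It was at 45.1 CPM (35.3 to 56.7) in 97 wild-type cells, at 6.08 CPM (2.23 to 13.2) in 55 mutant cells and at 3.94 CPM (1.07 to 10.1) in 62 heterozygote cells. In inhibitory neurons hoxd4a was at 43.8, 32.4 and 33.4 CPM, with overlapping intervals. These cells are few, and the motor values for hoxd4a rest on 73, 6 and 4 UMIs. The share of all genes that differed in motor cells was not computed. The part of their position along the hindbrain was not tested.

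**Figure D3:**
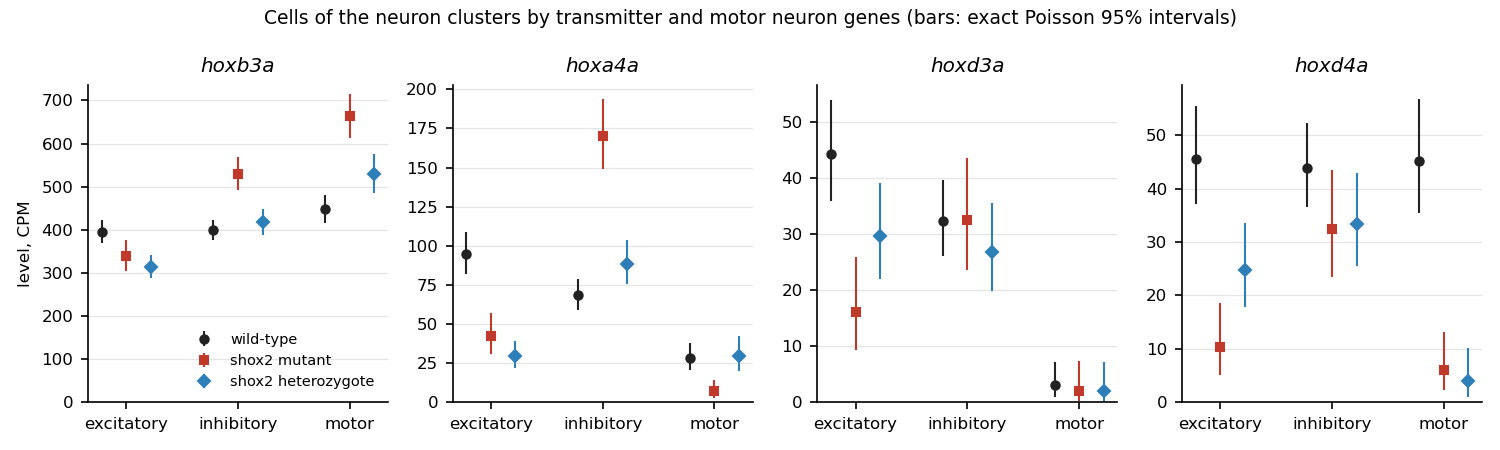
Level (CPM) of hoxb3a, hoxa4a, hoxd4a and hoxd3a in excitatory, inhibitory and motor cells of the neuron clusters, with 1 point per library and exact Poisson 95% intervals. hoxd3a is lowest in motor cells of every library, and the motor level of hoxd4a is 45.1 CPM for the wild-type library against 6.08 and 3.94 CPM for the others.

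The ratio between libraries was compared gene by gene, with an exact interval for counting error, among genes at 10 CPM or more in at least 1 of the 2 libraries. In neural progenitor-like cells hoxb3a was higher in the mutant than in the wild-type library by 0.67 on the log2 scale (0.63 to 0.70), against a median of 0.09 over all genes. It was the 1 gene past 1.5-fold of the 3 group 3 and 4 genes that could be compared, where 20.1% of all genes were past it, 13.7% upward and 6.37% downward. hoxa4a differed by 0.36 (0.29 to 0.42) and hoxd4a by 0.50 (0.42 to 0.57), both short of 1.5-fold. The class leaves out clusters 7, 10 and 20, unnamed clusters with neural progenitor markers that the gates include. Clusters 10 and 20 had the highest hoxa4a levels and almost no hoxd4a, and cluster 20 held 7 wild-type against 232 mutant cells. The ratios of the class do not cover these cells. With median-of-ratios scaling the hoxb3a difference was 0.57, just short of 1.5-fold. Without cells of shared barcodes it was 0.69.

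In the heterozygote library hoxb3a lay between the others in these cells, 0.26 (0.22 to 0.30) above the wild-type library on the log2 scale, where 15.5% of all genes were past 1.5-fold and none of the 3 genes was. Between the mutant and heterozygote libraries, where 1.33% of genes were past 1.5-fold, hoxb3a was 0.41 (0.37 to 0.45) higher in the mutant, hoxa4a 0.41 (0.33 to 0.49) and hoxd4a 0.35 (0.27 to 0.43), none of them past it. The class is held by different clusters in the libraries. Of its 3728 wild-type cells, 1302 were in cluster 2 and 718 in cluster 16, while of its 1862 mutant cells 558 were in cluster 0 and 466 in cluster 5, as were 866 and 609 of its 2586 heterozygote cells.

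Within the 5 clusters of the class that held at least 50 cells of each library, hoxb3a was higher in the mutant than in the wild-type library in 5 of 5. Its level went from 179 to 263 CPM in cluster 4, 240 to 414 CPM in cluster 15, 254 to 412 CPM in cluster 17, 492 to 684 CPM in cluster 19 and 309 to 627 CPM in cluster 22, wild-type first. hoxa4a was likewise higher in 5 of 5, and over all 5202 genes compared, 33.5% were higher in every one of these clusters. hoxd4a was higher in 4 of 5 and lower in cluster 19, which is led by atoh1a, a factor of the dorsal rhombic lip, where it stood at 35.8 CPM in the wild-type, 15.9 CPM in the mutant and 28.3 CPM in the heterozygote library. hoxb3a was also higher in the mutant than in the heterozygote library in 5 of 5 clusters, against 19.2% of genes.

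In cells with mafba and egr2b, where 22.3% of genes were past 1.5-fold between the mutant and wild-type libraries, hoxa4a was 0.77 (0.68 to 0.86) higher in the mutant on the log2 scale, hoxb3a 0.55 (0.49 to 0.61) higher and hoxd4a 0.86 (0.39 to 1.33) lower, so that 1 of 3 was past the fold upward, where 15.7% of genes were, and 1 of 3 downward, where 6.65% were. With gates on thinned cells the hoxa4a difference was 0.38, short of the fold, and that of hoxd4a turned to 0.95 upward on few UMIs. The heterozygote library was above the wild-type library by 0.68 for hoxa4a and 0.40 for hoxb3a and below it by 1.00 for hoxd4a, where 18.5% of genes were past the fold. Between the mutant and heterozygote libraries, where 3.25% were, hoxa4a differed by 0.09 and hoxb3a by 0.15. In the same cells egr2b was at 296, 832 and 726 CPM and mafba at 246, 409 and 430 CPM in the wild-type, mutant and heterozygote libraries, so the gate itself held cells with more transcripts of both marker genes in the mutant and heterozygote libraries. Their part in the hoxa4a and hoxb3a differences was not tested. In cells with mafba alone hoxb3a was 0.75 (0.69 to 0.81) and hoxa4a 0.83 (0.71 to 0.95) higher in the mutant than in the wild-type library, both past the fold, where 21.2% of genes were. There hoxd4a was highest in the wild-type library, and it was 0.70 higher in the mutant than in the heterozygote library. That difference was past the fold, also in 9 of 9 alternatives, where 2.76% of genes were past it upward.

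Outside the neural cells hoxb3a was higher in the mutant than in the wild-type library by 0.79 (0.71 to 0.87) on the log2 scale in pharyngeal endoderm-like cells, where 17.7% of genes were past 1.5-fold. In head mesenchyme-like cells, where 16.4% were, hoxb3a was higher by 0.66 (0.54 to 0.78), with levels of 70.5, 111 and 71.8 CPM in the wild-type, mutant and heterozygote libraries. Without cells of shared barcodes the endoderm difference was 0.60, and that in head mesenchyme-like cells was 0.58, short of 1.5-fold. Over 7 alternatives the head mesenchyme difference lay between 0.48 and 0.77 and was past the fold in 3. hoxa4a in head mesenchyme-like cells was at 34.4, 34.9 and 28.5 CPM, a mutant to wild-type difference of 0.02 (-0.18 to 0.23). Between the mutant and heterozygote libraries, hoxb3a in head mesenchyme-like cells was 0.63 higher in the mutant, past the fold in 1 of 7 alternatives. In pharyngeal endoderm-like cells hoxa4a was 0.63 higher in the mutant than in the heterozygote library, past it in 4 of 7. Over all kept cells 1.59% of genes were past 1.5-fold between these libraries. In neuron-like cells, where 26.0% of genes were past 1.5-fold between the mutant and wild-type libraries, hoxd4a was at 45.1, 19.3 and 27.1 CPM, lower in the mutant than in the wild-type library by 1.22 (0.74 to 1.73).

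**Figure D4:**
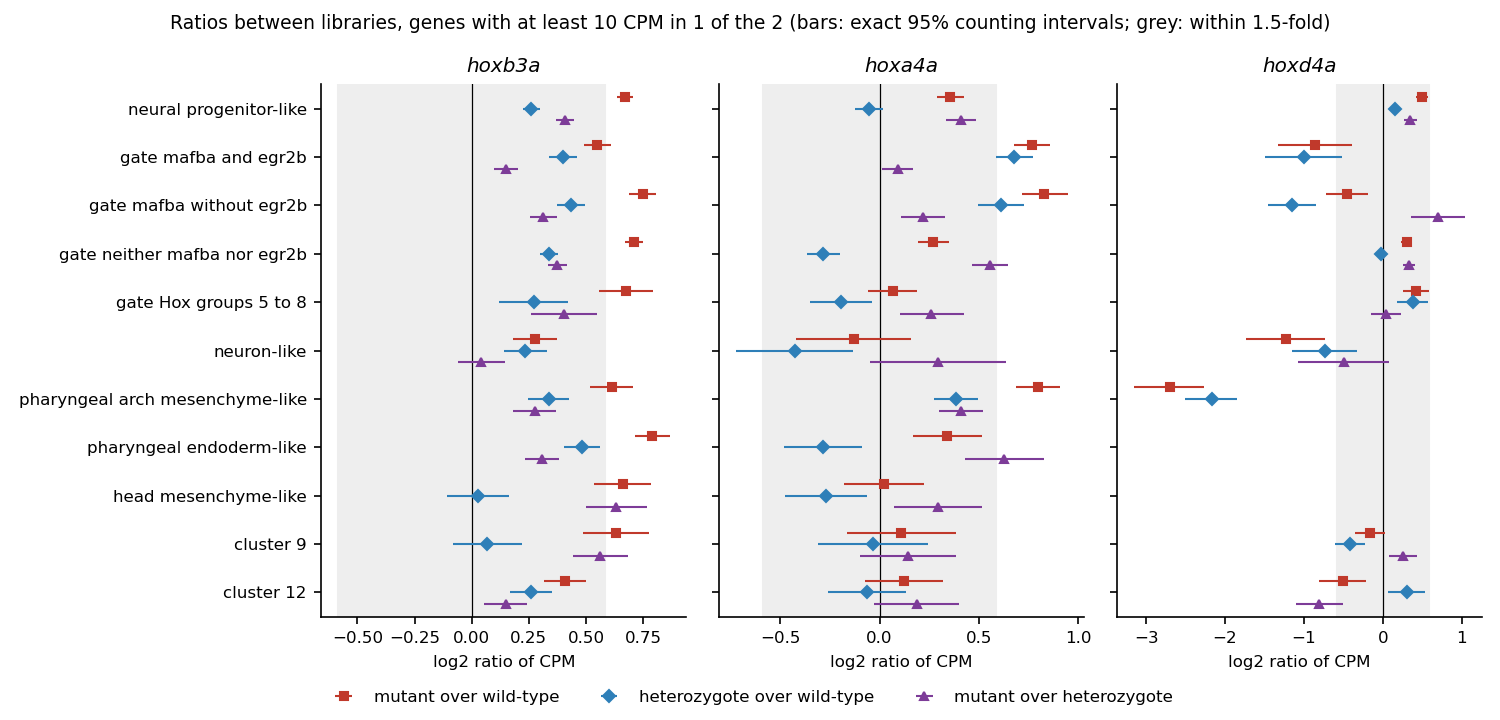
Log2 ratio of hoxb3a, hoxa4a and hoxd4a between libraries in 11 classes, gates and unnamed clusters, with exact 95% intervals for counting error as bars and a grey band within 1.5-fold. hoxb3a lies above 0 in the comparison of mutant with wild-type in all 11, some of which share cells, and hoxd4a is furthest below 0 in the arch mesenchyme-like cells. Epidermis-like cells and the arch subset without sox10 and foxd3, where hoxb3a was lower in the mutant library, are not shown.

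The pharyngeal arch mesenchyme-like class was named from dlx2a, prrx1b and grem2b, genes of the neural crest derived tissue that fills the arches. The class also carried neural crest markers, with foxd3 among its leading genes. It held 517, 397 and 447 cells. hoxd4a was at 34.9 CPM (32.0 to 37.9) in wild-type, 5.38 CPM (3.95 to 7.16) in mutant and 7.75 CPM (6.23 to 9.53) in heterozygote cells of the class. hoxd3a, its neighbour in the hoxd cluster, was at 10.2 CPM (8.71 to 11.9), 2.52 CPM (1.58 to 3.81) and 2.07 CPM (1.32 to 3.07). Both hoxd genes were thus highest in the wild-type library, and over the whole class hoxb3a and hoxa4a were highest in the mutant library. hoxb3a was at 131, 201 and 166 CPM and hoxa4a at 86.7, 151 and 113 CPM.

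On the log2 scale the mutant library was below the wild-type library by 2.69 (2.26 to 3.16) for hoxd4a and by 2.02 (1.37 to 2.74) for hoxd3a, and above it by 0.80 (0.69 to 0.91) for hoxa4a and 0.61 (0.52 to 0.70) for hoxb3a. All 4 were past 1.5-fold, where 18.6% of genes were, 11.4% upward and 7.20% downward. The heterozygote library was below the wild-type library by 2.17 (1.85 to 2.51) for hoxd4a and 2.31 (1.68 to 2.99) for hoxd3a, 2 of 4 genes past the fold where 15.3% of genes were. Between the mutant and heterozygote libraries, where 2.43% of genes were past it, neither hoxb3a nor hoxa4a was, and the hoxd genes were too low to be compared. Without cells of shared barcodes the mutant to wild-type difference of hoxd4a was -3.33 and that of hoxb3a 0.54, short of the fold, which hoxb3a passed under 3 of 7 alternatives.

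The makeup of the class differed between libraries. Cells with a UMI of sox10 or foxd3, markers of migrating neural crest, numbered 190 of 517 in the wild-type, 255 of 397 in the mutant and 276 of 447 in the heterozygote library. In these cells hoxd4a was at 36.7, 5.90 and 9.63 CPM, a mutant to wild-type difference of -2.64, and hoxb3a at 205, 256 and 235 CPM, a difference of 0.32 that is short of 1.5-fold, where 21.4% of genes were past it. In the 327, 142 and 171 cells without sox10 and foxd3, hoxd4a was at 33.8, 3.76 and 4.60 CPM, a difference of -3.17 where 21.5% of genes were past the fold. hoxb3a in those cells was at 89.4, 28.2 and 49.9 CPM and hoxa4a at 65.6, 28.7 and 38.4 CPM, lower in the mutant than in the wild-type library by 1.66 and 1.19. The subsets do not hold the same cells in each library. Cells without sox10 and foxd3 had median depths of 33063, 9028 and 26715 UMIs in the wild-type, mutant and heterozygote libraries, against 31023, 26631 and 27330 UMIs in cells with either gene. Other genes differed there as well, with hand2, a factor of the ventral arches, at 82.7, 34.4 and 54.3 CPM, hoxa2b at 96.3, 176 and 117 CPM and hoxb2a at 66.7, 128 and 87.4 CPM. The part of depth and cell makeup in the lower values of this subset was not tested.

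hoxd4a within this class was carried by a subset of its cells. At the finer clustering resolution of 2 the class split in 2 pieces. In the piece called neural crest-like, of 280, 174 and 215 cells, hoxd4a was at 55.9, 6.65 and 10.99 CPM and hoxb3a at 215, 303 and 269 CPM. Cells with sox10 or foxd3 made up 60.0%, 97.1% and 88.8% of this piece, so cells without them came from it far more often in the wild-type library. In the piece still called arch mesenchyme-like, of 237, 220 and 225 cells, hoxd4a was at 5.31, 3.34 and 3.35 CPM, with overlapping intervals, and hoxb3a at 13.3, 32.5 and 27.2 CPM, and 9.28%, 38.2% and 34.7% of cells had sox10 or foxd3. hoxb3a was thus higher in the mutant than in the wild-type library in both pieces. A comparison of the class as named at that resolution therefore gave a mutant to wild-type difference of -0.67 for hoxd4a.

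Other genes of the lists also differed between the libraries in these cells, some lower and some higher in the mutant. cyp26a1, which degrades retinoic acid and is induced by it, was at 13.6, 0.46 and 0.52 CPM in the wild-type, mutant and heterozygote libraries, and dhrs3b, a retinaldehyde reductase, at 46.6, 4.69 and 7.32 CPM. mafba was at 34.9, 135 and 92.6 CPM. Of the retinoic acid pathway list, 11 of 21 genes could be compared between the mutant and wild-type libraries, of which 0 were higher and 5 lower past 1.5-fold, where 11.4% of all genes were higher and 7.20% lower, with a median of -0.55 against 0.04 over all genes. Of Hox groups 1 and 2, 4 genes could be compared, of which hoxa2b was higher, at 75.7, 129 and 105 CPM, and hoxc1a lower, at 21.5, 14.0 and 13.6 CPM.

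**Figure D5:**
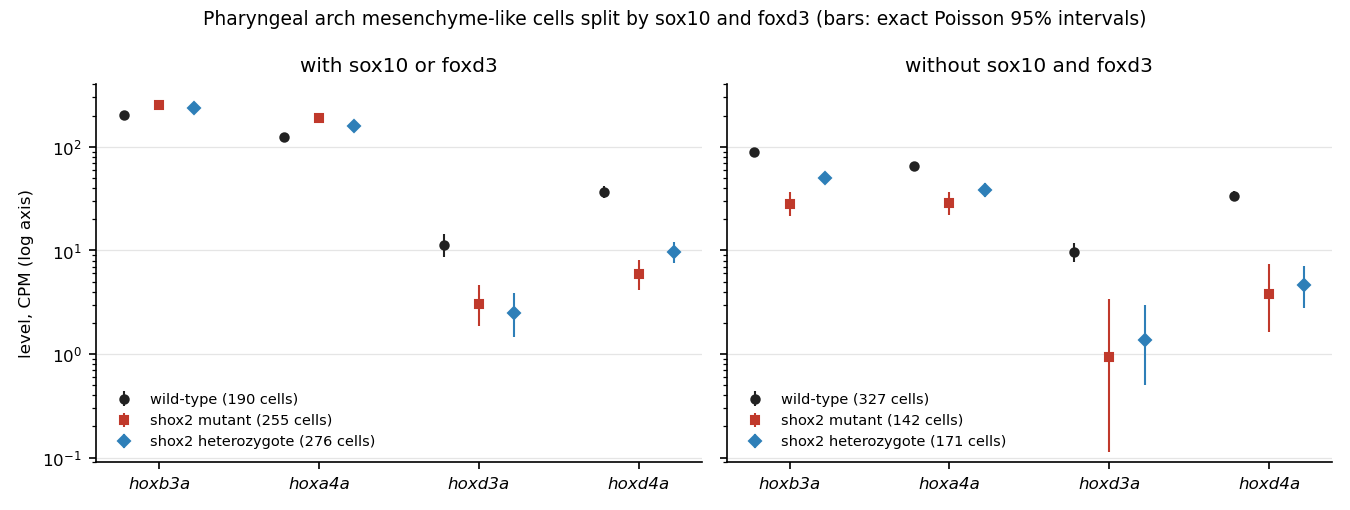
Level (CPM, log axis) of hoxb3a, hoxa4a, hoxd3a and hoxd4a in pharyngeal arch mesenchyme-like cells with and without a UMI of sox10 or foxd3, with 1 point per library and exact Poisson 95% intervals. hoxd4a lies between 33.8 and 36.7 CPM in the wild-type library and between 3.76 and 9.63 CPM in the other libraries in both subsets.

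hoxa4a and hoxd4a were each detected more often in neural cells with hoxb3a than in those without it. Of neural cells thinned to 3000 UMIs, 4792 wild-type, 2785 mutant and 3796 heterozygote, hoxa4a was detected in 23.1%, 31.5% and 30.2% of cells with hoxb3a and in 10.4%, 11.4% and 9.49% of cells without it. hoxd4a was detected in 15.5%, 15.2% and 13.3% of cells with hoxb3a and in 9.47%, 8.10% and 7.86% of cells without. Cells with hoxb3a and hoxa4a but no hoxd4a made up 7.20%, 14.8% and 11.9% of the neural cells, and cells with hoxd4a alone numbered 196, 64 and 115. All 3 genes were detected in 1.94%, 2.84% and 2.21% of the neural cells. No UMI of hoxb3a, hoxa4a or hoxd4a was left in 2395, 1019 and 1717 cells. Thinned counts miss most low transcripts, so cells counted as lacking a gene include cells where it was missed. Without thinning, hoxa4a was detected in 53.2% of wild-type neural cells with hoxb3a and in 6.23% of those without it. Unthinned cells differ in depth, so this contrast, unlike that of 23.1% against 10.4%, is not at equal depth. Unthinned wild-type cells with hoxd4a alone numbered 51, and those with none of the 3 genes 1409.

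Over the 40 clusters of at least 50 cells, libraries summed, the gene whose level was most like that of hoxb3a was hoxb2a, its neighbour group 2 gene, with a Pearson correlation of log2(CPM + 1) of 0.95. hoxa4a followed with 0.85, then meis2a with 0.80, tshz3b with 0.78 and meis1b with 0.77. meis genes encode TALE homeodomain proteins, which are cofactors of Hox proteins. The symbol meis2a has 2 rows in the matrices, and which of them gave the correlations was not recorded. The genes most like hoxa4a were hoxb3a (0.85), hoxb2a (0.79), the crystallin gene cryba2b (0.78), hoxa2b (0.78) and the retinoic acid receptor gene rarab (0.75). Those most like hoxd4a were hoxc1a (0.70), tshz1 (0.68), hoxd3a (0.64), hoxb2a (0.60) and prdm13 (0.57), and its correlation with hoxa4a was 0.42. hoxd3a was most like gdf11 (0.75), a gene of the transforming growth factor family, followed by meis2a (0.73), tshz3b (0.71), mpnd (0.70) and lrrc4.1 (0.70). For hoxb4a they were slc1a2b (0.84), katnal1 (0.75), mpp3a (0.75), syt11a (0.74) and sall1a (0.73), on few UMIs. Clusters share libraries, depth and free RNA, so these values are descriptions with no test.

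Genes of the same pathway in neural progenitor-like cells were counted from lists of symbols. Of the segmentation regulators, 5 of 12 could be compared between the mutant and wild-type libraries, of which 3 were higher and 0 lower past 1.5-fold. Over all genes, 13.7% were higher and 6.37% lower in these cells, which holds for each list that follows. egr2b was at 64.8, 157 and 132 CPM in the wild-type, mutant and heterozygote libraries, irx1b at 38.2, 119 and 82.2 CPM and mafba, short of the fold, at 55.3, 69.1 and 63.9 CPM. Of Hox groups 1 and 2, 2 of 4 genes compared were higher and 0 lower, with a median log2 difference of 0.68. These were hoxb1b, at 4.33, 16.3 and 6.14 CPM, and hoxc1a, at 14.0, 24.4 and 13.6 CPM. hoxb2a, the neighbour of hoxb3a, was at 53.1, 78.4 and 64.1 CPM, a difference of 0.56 that falls just short. Of the retinoic acid pathway 3 of 10 genes were higher and 1 lower. They include cyp26c1, which degrades retinoic acid, at 26.2, 95.6 and 87.2 CPM, and the lower gene crabp1b, which binds it, at 25.4, 7.83 and 6.95 CPM. Of the TALE cofactors 2 of 9 were higher, among them meis2a at 135, 233 and 186 CPM, and 1 was lower. The symbol meis2a has 2 rows in the matrices, and only the first was used for this level. hoxc3a, the group 3 gene of the hoxc cluster, was at 6.50, 12.4 and 7.04 CPM.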

How the data were processed

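The authors deposited raw UMI counts per gene and cell barcode, made with Cell Ranger 4.0.0 on GRCz11 with EGFP and DsRed added. Here cells were filtered on genes and mitochondrial UMIs, and the libraries were clustered together with scanpy 1.11.5 (40 principal components, 10 neighbors, Leiden resolution 1) without hox genes, EGFP, DsRed and shox2, giving 42 clusters. A cluster was called X-like from marker lists, by a rule settled after the clusters were seen, and 12 clusters stayed unnamed. Scrublet called 0 doublets in each library, so it did not work here and no cell was removed. UMIs were summed per library and class, with exact Poisson intervals for levels and exact conditional binomial intervals for ratios. A gene was called past 1.5-fold on the ratio alone, and with 1 library per condition no p-value was computed. The named genes are the 6 members, list genes where a result turns on them, and per member the 5 genes most correlated over clusters. The members, lists and gates were chosen with earlier results of these data known. Gate gene dbx2 has no row. Thinning to 3000 UMIs left out 505 wild-type, 875 mutant and 740 heterozygote cells. Counts were simulated for neural progenitor-like cells of the mutant and wild-type libraries. Of genes changed 2-fold, 100 of 100 raised and 100 of 100 lowered were past 1.5-fold, as were 0 of 5607 unchanged genes. The simulation held counting error only, so it does not show how often unchanged genes pass 1.5-fold between real libraries. Alternatives were another clustering resolution, centering within libraries, removal of the 8% highest doublet scores, another scaling, thinning, other gates and, chosen after seeing the data, leaving out cells of shared barcodes and splitting the arch class.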

Additional observations from a re-analysis of the deposited data

How the results depend on the processing

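No paired analysis was possible because each condition has 1 library. The log2 difference of hoxb3a between the mutant and wild-type libraries in neural progenitor-like cells stayed between 0.57 and 0.75 over 7 alternatives and was past 1.5-fold in 6 of them. It was 0.57 with median-of-ratios scaling, 0.75 with centering within libraries and 0.62 on thinned cells. For the heterozygote library it was 0.21 with median-of-ratios scaling, 0.38 at resolution 0.5 and 0.30 without shared barcodes. hoxd4a in the arch mesenchyme-like class, mutant over wild-type, was -0.67 at resolution 2, -0.47 without the 8% highest doublet scores and -3.33 without shared barcodes. Heterozygote over wild-type it was -0.66 and -1.04 under the former 2 settings. Both of those settings split the class, as described above. In cells with mafba and egr2b the hoxa4a difference between mutant and wild-type was 0.68 with median-of-ratios scaling, 0.38 with gates on thinned cells and 0.63 with at least 2 UMIs of each gate gene. Levels in that gate in the wild-type library moved to 443 CPM for hoxb3a without the highest doublet scores, 537 CPM with gates on thinned cells and 468 CPM with at least 2 UMIs. hoxa4a moved to 245 and 192 CPM under the last 2, and hoxd4a to 7.33 CPM at resolution 2 and 1.25 CPM with gates on thinned cells. Directions turned for hoxd4a with gates on thinned cells, to 0.95 (mutant) and 0.79 (heterozygote) over wild-type with mafba and egr2b, and to -0.19 for mutant over wild-type with egr2b alone at 2 UMIs. The cause was not tested. The share of wild-type progenitor-like cells with hoxb3a was 65.1% unthinned and 51.0% at 6000 UMIs, and hoxa4a was found in 53.2% of unthinned wild-type neural cells with hoxb3a. Leaving out shared barcodes kept the direction of 87 of 91 log2 differences and reversed none that was called. hoxb4a and hoxd3a are limited by depth in most classes, and a gene with 0 UMIs can lie below 3 UMIs of the class total. Protein identity between the genes was not analysed here.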

Other observations

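Values of the genes in other classes stand outside the comparisons above. In pigment-like cells, 62 wild-type, 73 mutant and 76 heterozygote, hoxd4a was at 15.7 CPM (10.2 to 23.2), 62.5 CPM (50.6 to 76.4) and 28.7 CPM (21.9 to 36.9), and hoxb3a at 47.8, 53.3 and 34.4 CPM. Pigment cells arise from the neural crest along the whole trunk and head. In cluster 12, an unnamed cluster led by rhag and gdf3 that also carries aldh1a2 and gata5, hoxd4a was at 49.0 CPM (43.6 to 54.8), 34.5 CPM (29.1 to 40.7) and 60.3 CPM (53.6 to 67.6), so the heterozygote library was highest there. In cranial sensory neuron-like cells hoxb3a was at 71.5, 71.3 and 60.1 CPM and hoxd4a at 6.60, 9.73 and 13.9 CPM. In epidermis-like cells hoxb3a was at 46.7 CPM (38.7 to 55.9), 31.1 CPM (26.6 to 36.1) and 14.1 CPM (11.4 to 17.2), highest in the wild-type library, and in endothelium-like cells at 60.8, 87.7 and 46.2 CPM. The values carry no test.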
